A study of Mus musculus with 10 samples.

Results

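Integrins are cell surface receptors made of an alpha and a beta chain, and laminins are secreted trimers of an alpha, a beta and a gamma chain that form much of the basement membrane. The genes described here are the protein-coding mouse genes whose symbols begin with Itga, Itgb, Lama, Lamb or Lamc followed by a digit or by the chain letters of the leukocyte and alpha v integrins. The naming rule took 42 of the 47069 genes listed. Values are given for 41 of them, namely 18 integrin alpha chains, 8 integrin beta chains and 10 laminin chains, 36 chain genes together, plus 5 genes that share the name without being conventional subunits. Of the 36 chain genes 35 passed the filter on low counts, and 30 reached a mean of 10 CPM (counts per 1000000 counted reads, after scaling of library sizes) in at least 1 line.

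RNA was sequenced from 10 prostate tumours grown from mouse prostate cancer lines, about 5000000 cells being placed in an anterior prostate lobe of male CD-1 Nude hosts, a strain without a normal thymus. The lines were P1 (3 tumours, from a donor of 14 months), CP1 (3 tumours, donor of 6 months) and CP2 (4 tumours, donor of 8 months). CP1 and CP2 came from tumours with a deletion of Ctnnb1 exon 3 on one allele, which stabilises beta-catenin, and the P1 donor is not labelled with this allele. P1 and CP genotypes also differ at a locus not reported here, and each line comes from a single donor tumour, so line, genotype and donor age cannot be told apart. The labels do not tie libraries to separate animals, and p-values measure only how these libraries spread, which may be technical. Since these are bulk samples of tumour with host tissue, fewer cells of a type and less RNA per cell cannot be told apart.

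Libraries held 28050484 to 37180721 counts in P1, 25081535 to 30546426 in CP1 and 18800912 to 20638085 in CP2, and 3 counts in a library equal 0.0923 to 0.154 CPM. CP2 replicate 1 carries a title that names CP1 while its other labels name CP2. Its log2 CPM correlated across genes at a mean of 0.991 with the other CP2 tumours and 0.931 with CP1. Transcripts typical of seminal vesicle and urothelium differed between tumours, and whether they came from host tissue or from tumour cells was not tested. The sum of 7 seminal vesicle genes was 167622, 69670 and 18029 CPM in P1 replicates 1, 2 and 3 and 1584 CPM or less elsewhere. The sum of 6 urothelial genes was 58.3, 1350 and 546 CPM in CP1 replicates 1, 2 and 3 against 2.14 to 48.4 CPM in the other lines. Of the prostate markers, Hoxb13 lay at 38.9 to 72.2 CPM in all tumours, Pbsn at 119 to 1393 CPM in P1, and Pbsn at 1.07 and 0.607 CPM in CP1 replicates 2 and 3. Luminal keratins and Epcam summed to 5266 to 11076 CPM in P1, 365 to 654 in CP1 and 45.9 to 202 in CP2.

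Lama3 and Lamb3 encode chains of the laminin that anchors stratified and glandular epithelia through hemidesmosomes, where it is bound by the integrin made of Itga6 and Itgb4. Laminins with the Lamb1 or Lamb2 and the Lamc1 chain are found in most basement membranes, with Lama5 typical of epithelia and Lama4 of vessels, muscle and other mesenchyme. Beta1 integrins bind laminins, collagens or fibronectin depending on the alpha chain, alpha v integrins bind proteins with the RGD tripeptide such as fibronectin and latent TGF-beta, and beta2 integrins are carried by leukocytes.

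Tumours of the 3 lines differed in their transcript levels of laminin chains and laminin receptors. Transcripts of Lama3, Lamb3 and Itgb4 were lower in CP1 and in CP2 than in P1, whereas Lama4, Lamb1, Lamc1 and Itgb1 were higher in both. In CP1 versus P1, 11 of 35 chain genes tested were higher and 9 lower, 57.1% of those tested against 44.8% of all 17644 genes (22.4% higher and 22.4% lower) (edgeR's quasi-likelihood test, Benjamini-Hochberg adjusted p below 0.05 over all genes). In CP2 versus P1, 11 were higher and 13 lower, 68.6% against 56.7% of all genes (28.3% higher and 28.4% lower). In CP2 versus CP1, 10 were higher and 12 lower, 62.9% against 43.3% of all genes (21.3% higher and 21.9% lower). The 10 became 4 without CP1 replicate 2 and 6 without CP1 replicate 1, without CP2 replicate 4 or without CP1 replicates 2 and 3. Median log2 fold changes of the chain genes were 0.20, -0.27 and -0.02 in these comparisons, against -0.01, 0.0016 and -0.0053 over all genes, so the members went both ways. The tumours of the 2 lines compared did not overlap for 23, 26 and 25 of the 35 chain genes, against 50.8%, 60.1% and 52.3% of all genes. Their median absolute change was 1.01, 1.04 and 1.06, against 0.49, 0.59 and 0.46 over all genes. The first 2 comparisons share the P1 tumours and are not independent of each other.

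**Figure D1:**
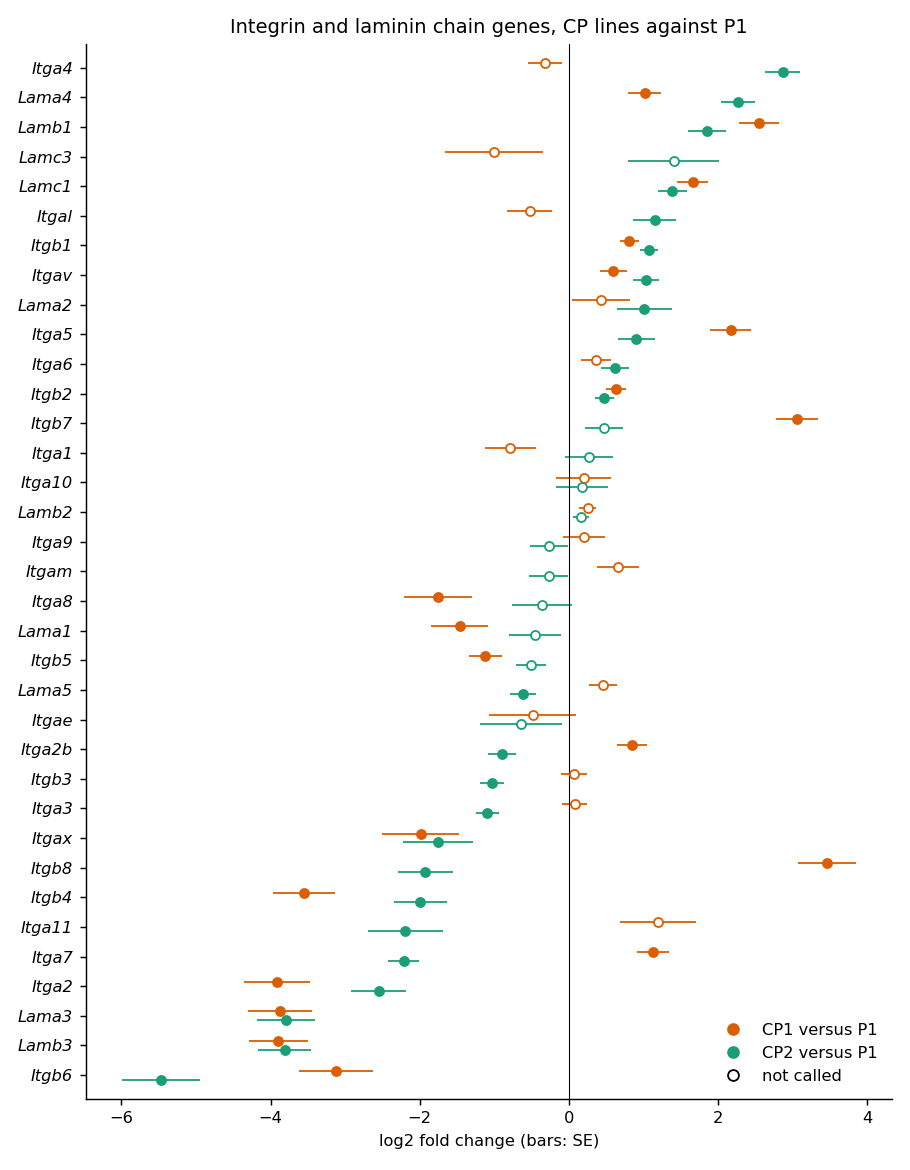
Log2 fold changes of the 35 chain genes tested, CP1 versus P1 in orange and CP2 versus P1 in green, with bars for the SE, filled points for adjusted p below 0.05, and genes ordered by the CP2 value. Lamb3 and Lama3 lie near -4 in both comparisons, while Itgb8, Itga7 and Itga2b lie on opposite sides of 0.

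Lama3, an alpha chain of hemidesmosomal laminin, had 159, 138 and 77.3 CPM in the P1 tumours, 4.63, 11.9 and 9.03 CPM in the CP1 tumours, and 13.2, 7.90, 5.61 and 9.40 CPM in the CP2 tumours. Lamb3 (chromosome 1, 193207699 to 193343878) and Itgb4 (chromosome 11, 115974709 to 116008412) lie at other loci of GRCm38. For Lama3 every CP tumour was below every P1 tumour, and P1 replicate 3 was the lowest of its line. The log2 fold change was -3.87 ± 0.43 (SE) in CP1 (edgeR adjusted p = 6.601e-05) and -3.79 ± 0.38 in CP2 (edgeR adjusted p = 2.455e-05). Lama3 overlaps an antisense gene, Gm29200, which had 26 counts over all tumours against 13188.

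Lamb3, a beta chain of the same laminin, had 299.9, 277 and 294 CPM in P1, 7.24, 22.7 and 28.7 CPM in CP1, and 21.7, 21.5, 20.7 and 18.8 CPM in CP2. P1 and CP2 tumours each varied little, and CP1 replicate 1 was the lowest of all 10. It fell by 3.89 ± 0.40 on the log2 scale in CP1 (edgeR adjusted p = 4.132e-05) and by 3.81 ± 0.36 in CP2 (edgeR adjusted p = 1.528e-05). CP2 and CP1 tumours overlapped for both genes, and CP2 minus CP1 was 0.08 ± 0.38 for Lama3 and 0.09 ± 0.34 for Lamb3 (edgeR adjusted p = 0.8813 and 0.8591). Without CP1 replicates 2 and 3, Lamb3 was called higher in CP2 than in CP1 (1.51, adjusted p = 3.657e-04).

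Itgb4, whose long cytoplasmic tail ties this laminin to keratin filaments, had 330.3, 355 and 446 CPM in P1, 12.7, 43.2 and 40.6 CPM in CP1, and 118, 93.2, 98.5 and 69.9 CPM in CP2. All 3 lines were apart from each other, with CP2 between P1 and CP1. The log2 fold change was -3.55 ± 0.41 in CP1 and -1.99 ± 0.35 in CP2 (edgeR adjusted p = 8.827e-05 and 8.633e-04), and CP2 was higher than CP1 by 1.56 ± 0.37 (edgeR adjusted p = 0.0072).

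Its partner Itga6 did not follow. Itga6 had 357, 398 and 329.6 CPM in P1, 398, 355 and 643 CPM in CP1, and 571, 536, 599 and 508 CPM in CP2. The log2 fold change was 0.36 ± 0.20 in CP1 (edgeR adjusted p = 0.1670) and 0.62 ± 0.19 in CP2 (edgeR adjusted p = 0.0184), and the CP2 call was lost without P1 replicate 1 (0.59, adjusted p = 0.0533), without P1 replicate 3 (0.54, adjusted p = 0.0698) and without P1 replicates 1 and 2 (0.72, adjusted p = 0.0880). The ratio of Itgb4 to Itga6 counts per kilobase of exon was 1.19, 1.15 and 1.74 in P1, 0.0411, 0.157 and 0.0813 in CP1, and 0.265, 0.224, 0.211 and 0.177 in CP2.

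Within CP1 Lama3, Lamb3 and Itgb4 were lowest in replicate 1, the tumour with the fewest urothelial transcripts (58.3 CPM over 6 genes, against 1350 and 546 CPM). The 4 basal markers Krt5, Krt14, Krt15 and Trp63 summed to 66.0, 945 and 610 CPM in CP1 replicates 1, 2 and 3 and to 195 to 384 CPM in P1. These sums rest on different genes, since 3 markers were higher and 1, Krt14, lower in CP1. Krt14 made up most of the P1 sums at 164 to 345 CPM, and lay at 9.18 to 22.5 CPM in CP1. The part of urothelial or basal cells in the CP1 values was not tested. Leaving out CP1 replicates 2 and 3 cannot decide this, because it leaves only replicate 1, the lowest CP1 tumour for all 3 genes.

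**Figure D2:**
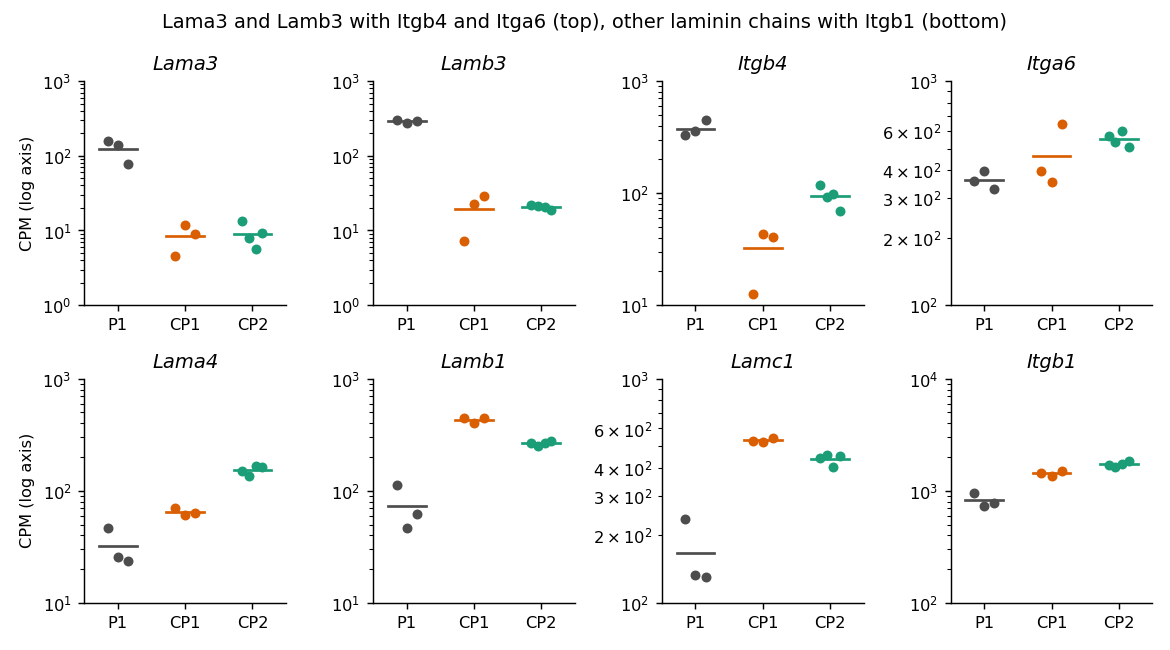
CPM on log axes in each tumour of P1, CP1 and CP2 for Lama3, Lamb3, Itgb4 and Itga6 (top) and Lama4, Lamb1, Lamc1 and Itgb1 (bottom), with 1 point per tumour and a line at the mean. No CP tumour overlaps a P1 tumour in any panel other than that of Itga6.

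Lamb1, the beta chain of the widespread basement membrane laminins, went the other way. The gene lies on chromosome 12 of GRCm38 (31265234 to 31329644). It had 112, 46.9 and 61.6 CPM in P1, 448, 399 and 443 CPM in CP1, and 268, 250.3, 265 and 276 CPM in CP2. The rise was 2.55 ± 0.27 in CP1 (edgeR adjusted p = 4.510e-05) and 1.85 ± 0.25 in CP2 (edgeR adjusted p = 1.590e-04). CP2 was below CP1 by log2 -0.70 ± 0.23 (edgeR adjusted p = 0.0344), but the difference was no longer called with any 1 of the 7 CP tumours left out (adjusted p = 0.0581 to 0.0830) and without CP1 replicates 2 and 3 (adjusted p = 0.168).

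Lamc1, the gamma chain of those laminins, had 238, 133 and 131 CPM in P1, 525, 520.1 and 546 CPM in CP1, and 442, 456, 404 and 451 CPM in CP2. It rose by 1.66 ± 0.21 in CP1 (edgeR adjusted p = 1.369e-04) and by 1.39 ± 0.20 in CP2 (edgeR adjusted p = 2.170e-04), and CP2 minus CP1 was -0.27 ± 0.19 (adjusted p = 0.2630). The CP1 and CP2 tumours did not overlap for Lamc1, and this difference was called in a fit of those 2 lines only (-0.29, adjusted p = 0.00899), without P1 replicate 1 (0.0163) and without P1 replicates 1 and 2 (0.0135). The gene lies on chromosome 1 of GRCm38 (153218922 to 153332786).

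Lamb3 and Lamb1 encode beta chains of different laminins and changed in opposite directions, so the DNA upstream of their RefSeq starts is shown for comparison. RefSeq's promoter table (GRCm38.p6) held 27 of the 41 genes. The sequences are the 250 bases before the first start listed (Lamb3 has 2 listed, and the one shown lies inside the GENCODE span of the gene), 5′ to 3′ on the strand of the gene, for Lamb3 at chr1:193301744-193301993 (plus strand) and for Lamb1 at chr12:31265043-31265292 (plus strand), with CG dinucleotides in capitals.
Lamb3: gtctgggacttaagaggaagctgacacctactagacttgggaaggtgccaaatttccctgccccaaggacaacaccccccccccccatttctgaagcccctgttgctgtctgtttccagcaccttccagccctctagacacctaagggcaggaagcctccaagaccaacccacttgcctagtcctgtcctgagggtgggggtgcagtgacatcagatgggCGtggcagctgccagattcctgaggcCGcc
Lamb1: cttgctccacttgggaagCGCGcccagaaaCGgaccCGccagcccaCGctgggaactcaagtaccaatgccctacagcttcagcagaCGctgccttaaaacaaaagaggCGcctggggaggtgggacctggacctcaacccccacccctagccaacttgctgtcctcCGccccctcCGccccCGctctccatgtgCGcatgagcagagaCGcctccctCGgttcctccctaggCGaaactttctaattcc
The Lamb3 window held 2 CG dinucleotides and the Lamb1 window 14, and their observed to expected CG ratios were 0.0941 and 0.627, against a median of 0.374 over all 32851 windows. The window of Itgb1, which was higher in both CP lines, held 21 (ratio 0.741), but those of Itga2 and Itgb6, which were lower in both, held 12 and 11 (0.562 and 0.655). Other chain genes with a window and the same direction of call in both CP lines were Itga5, Itgav and Itgax. Itga5 and Itgav, which rose, held 11 and 18 (0.570 and 0.694), and Itgax, which fell, held 5 (0.336). Both the CG counts and the ratios of genes that rose thus overlapped those of genes that fell. Neither window shown held the AP-1 motif TGAGTCA, the E-box CACCTG, or the TCF/LEF motifs CTTTGAA and CTTTGAT on either strand. Over all windows, 4.46%, 17.2% and 7.48% held these motifs, and of the 27 windows of these genes 1, 6 and 3 did.

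Lama4, an alpha chain of mesenchymal and vascular basement membranes, had 46.7, 25.8 and 23.6 CPM in P1, 69.7, 60.9 and 63.8 CPM in CP1, and 151, 136, 166 and 163 CPM in CP2. The lines stood in the order P1, CP1, CP2 with no overlap. The rise was 1.02 ± 0.22 in CP1 (edgeR adjusted p = 0.0042) and 2.27 ± 0.22 in CP2 (edgeR adjusted p = 2.066e-05), and CP2 exceeded CP1 by 1.25 ± 0.21 (edgeR adjusted p = 0.0012). The last call was lost without CP1 replicates 2 and 3 (adjusted p = 0.0531). Summed endothelial markers (6 genes) lay at 160 to 296 CPM in P1, 181 to 235 in CP1 and 119 to 200.2 in CP2. Of these 6 genes, 0 rose and 0 fell in CP1, and 0 rose and 3 fell in CP2. Summed fibroblast markers (5 genes) lay at 214 to 479 CPM in P1, 433 to 692 in CP1 and 1078 to 1298 in CP2. Of these 5 genes, 1 rose and 0 fell in CP1, and 3 rose and 2 fell in CP2. The part of either cell type in the Lama4 result was not tested.

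Lama5, the main epithelial alpha chain, had 500.1, 445 and 408 CPM in P1, 500.3, 566 and 786 CPM in CP1, and 324, 345, 245 and 269 CPM in CP2. CP2 tumours were below all others, by log2 -0.61 ± 0.17 against P1 (edgeR adjusted p = 0.0130) and -1.06 ± 0.17 against CP1 (edgeR adjusted p = 9.842e-04). The first call was lost without P1 replicates 1 and 2 (-0.50, adjusted p = 0.153), and CP1 minus P1 was 0.45 ± 0.19 (adjusted p = 0.0757; 0.0397 without CP1 replicate 1). Lamb2, the beta chain of muscle and kidney laminins, had 219 to 228 CPM in P1, 244 to 311 in CP1 and 229 to 271 in CP2 and was called in no comparison (edgeR adjusted p = 0.0998, 0.2322 and 0.5009).

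The less abundant chains Lama1 and Lama2 gave calls that depended on which tumours were kept. Lama1, an alpha chain of early embryonic basement membranes, had 18.7, 7.88 and 5.91 CPM in P1, 3.11, 3.80 and 4.90 CPM in CP1, and 6.97 to 8.84 CPM in CP2. It fell by 1.47 ± 0.38 in CP1 (edgeR adjusted p = 0.0110), a call lost without P1 replicates 1 and 2 (log2 -0.62, adjusted p = 0.117) and without CP1 replicates 2 and 3 (-1.80, adjusted p = 0.0611). CP2 exceeded CP1 by 1.02 ± 0.36 (adjusted p = 0.0461), which was lost when any 1 CP tumour was left out (adjusted p = 0.0575 to 0.135), with no filter on low counts (0.0582) and without CP1 replicates 2 and 3 (0.147). Lama2, the alpha chain of muscle laminin, had 5.25 to 13.0 CPM in P1, 6.11 to 17.4 in CP1 and 17.0 to 21.9 in CP2. Its rise in CP2 of 1.01 ± 0.37 (edgeR adjusted p = 0.0402) was lost when P1 replicate 2 or 3 or any 1 CP2 tumour was left out (adjusted p = 0.0562 to 0.131). Lamc3 stayed at 13.5 CPM or less, and only CP2 versus CP1 was called for it (2.41 ± 0.65, adjusted p = 0.0139).

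Counts per kilobase of exon put the chains on a common scale. In P1, Lama5 took 71.9% ± 5.6 (SD, n = 3) of the summed alpha chain signal, Lama3 20.5% ± 4.2 and Lama4 4.67% ± 1.10. In CP1, Lama5 took 87.8% ± 1.9 (n = 3), Lama3 1.29% ± 0.57 and Lama4 9.03% ± 2.24. In CP2, Lama5 took 62.2% ± 5.2 (n = 4), Lama3 2.00% ± 0.61 and Lama4 31.01% ± 5.04. Lama5 was thus the leading alpha chain transcript in every tumour, followed by Lama3 in P1 and by Lama4 in the CP lines.

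Among the beta chains, Lamb3 took 49.8% ± 1.3 in P1, 3.25% ± 1.83 in CP1 and 4.41% ± 0.24 in CP2, and Lamb1 took 8.24% ± 3.29, 48.2% ± 5.0 and 37.6% ± 2.5. Lamb2 made up 42.0% ± 2.0, 48.6% ± 4.7 and 58.0% ± 2.4. P1 tumours therefore held more of the Lamb3 than of the Lamb1 transcript, and every CP tumour the reverse. The ratio of Lamb3 to Lamb1 counts per kilobase was 4.03, 8.85 and 7.16 in P1, 0.0242, 0.0851 and 0.0970 in CP1, and 0.121, 0.129, 0.118 and 0.103 in CP2.

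The share differences of Lama3 were -19.2 percentage points for CP1 and -18.5 for CP2 against P1, and that of Lama4 was 26.3 for CP2. Two-sided exact permutation tests gave p = 0.1, 0.0571 and 0.0571 for these (0.15, 0.123 and 0.123 adjusted over 69 share comparisons). These are the smallest p-values that 3 against 3 and 3 against 4 tumours allow, so no share comparison could pass 0.05.

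**Figure D3:**
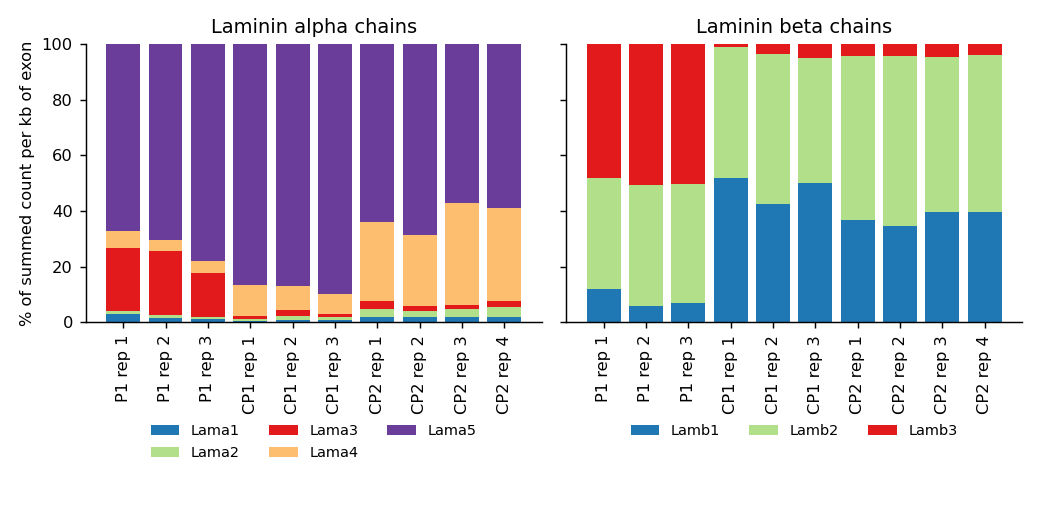
Stacked bars of the share (%) of each laminin alpha and beta chain in the summed count per kilobase of exon, 1 bar per tumour and a colour per gene. Lamb3 fills 48.2% to 50.7% of the P1 bars and 4.87% or less of every CP bar.

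Among the receptors, Itgb1, the beta chain shared by most of the alpha chains, was the most abundant integrin transcript per kilobase in all 3 lines. It had 956, 725 and 783 CPM in P1, 1440.2, 1366 and 1517 CPM in CP1, and 1699, 1644, 1742 and 1837 CPM in CP2. It rose by 0.81 ± 0.13 in CP1 (edgeR adjusted p = 5.673e-04) and by 1.08 ± 0.12 in CP2 (edgeR adjusted p = 5.103e-05). Per kilobase of exon Itgb1 took 59.0% ± 2.4, 80.6% ± 0.7 and 84.4% ± 1.3 of the beta chain signal in P1, CP1 and CP2, and Itgb4 took 15.97% ± 3.3, 1.05% ± 0.57 and 2.70% ± 0.63.

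The alpha chains that pair with Itgb1 to bind laminin did not move as a set. Itga3, which binds laminins with Lama3 or Lama5, had 396, 446 and 438 CPM in P1, 394, 486 and 469.9 CPM in CP1, and 252, 211, 182 and 156 CPM in CP2. It was lower in CP2 by log2 -1.09 ± 0.16 against P1 and -1.17 ± 0.16 against CP1 (edgeR adjusted p = 2.206e-04 and 2.966e-04). Itga7, the laminin receptor of muscle, had 24.1, 18.7 and 16.3 CPM in P1, 49.5, 35.04 and 44.5 CPM in CP1, and 5.24, 3.04, 4.42 and 4.28 CPM in CP2. It was higher in CP1 (1.13 ± 0.21, edgeR adjusted p = 0.0017) and lower in CP2 (-2.21 ± 0.21, edgeR adjusted p = 1.476e-05), and CP2 minus CP1 was -3.34 ± 0.21 (edgeR adjusted p = 5.346e-06). Summed smooth muscle markers (5 genes) were 2601, 1163 and 915 CPM in P1, 491, 2395 and 3587 CPM in CP1, and 178 to 418 CPM in CP2, all 5 being lower in CP2 and none called in CP1. CP1 replicate 1 had the fewest of them in its line and the most Itga7, and the part of muscle in the CP2 values was not tested.

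Of the collagen receptors, Itga2, found on many epithelia, had 138, 120.2 and 41.3 CPM in P1, 4.02, 6.81 and 9.07 CPM in CP1, and 16.7, 17.6, 15.2 and 18.7 CPM in CP2. It fell by 3.91 ± 0.44 in CP1 (edgeR adjusted p = 7.500e-05) and by 2.55 ± 0.38 in CP2 (edgeR adjusted p = 2.737e-04). P1 replicate 3, the P1 tumour with the fewest seminal vesicle transcripts, was the lowest of its line for Itga2 and Lama3. It was the highest of its line for Itgb4 (446 CPM) and Itgb6 (28.6 CPM), which also fell in both CP lines. The part of seminal vesicle tissue in these values was not tested. CP2 was above CP1 by 1.36 ± 0.39 (edgeR adjusted p = 0.0192), a call lost without CP1 replicate 1 (1.10, adjusted p = 0.0652) and without CP1 replicate 2 (1.38, adjusted p = 0.0529). Itga2 and its neighbour on chromosome 13, Itga1, a collagen receptor of mesenchyme, differed: Itga1 had 19.5 to 54.6 CPM in P1, 16.7 to 25.2 in CP1 and 33.0 to 52.1 in CP2 and was not called in either line against P1, though CP1 was called lower without P1 replicate 3 (log2 -1.08, adjusted p = 0.0208) and CP2 higher without P1 replicate 1 (0.78, adjusted p = 0.0237). CP2 exceeded CP1 for Itga1 by 1.06 ± 0.33 (edgeR adjusted p = 0.0257), a call lost without CP1 replicate 1 or 2, CP2 replicate 4, or CP1 replicates 2 and 3 (adjusted p = 0.0643 to 0.12).

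Itga11, the collagen receptor of fibroblasts, had 16.2, 7.41 and 5.07 CPM in P1, 18.6, 22.7 and 24.5 CPM in CP1, and 1.28, 1.32, 1.41 and 4.33 CPM in CP2. It was lower in CP2 than in P1 by log2 -2.19 ± 0.50 (edgeR adjusted p = 0.0039; -1.30 and not called without P1 replicates 1 and 2, 0.105) and than in CP1 by -3.39 ± 0.51 (edgeR adjusted p = 5.871e-04). All CP1 tumours were above all P1 tumours for Itga11, but the difference of 1.20 ± 0.51 was not called (edgeR adjusted p = 0.0825). It was called with DESeq2 (adjusted p = 0.0484), without CP2 replicate 4 (0.0276) and without P1 replicate 1 (0.0192). The summed fibroblast markers were highest in CP2, but the 5 genes of that list were split. In CP2 3 were higher and 2 lower than in P1, and 2 were higher and 2 lower than in CP1. The part of fibroblasts in the Itga11 values was not tested. Itga10 stayed at 5.50 CPM or less and was called in no comparison. It shares 1739 exon bases with Gm42957 on the same strand, which held 24 counts over all tumours against 796, so its level is uncertain.

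Fibronectin and RGD receptors were split. Itga5, the fibronectin receptor, had 146, 71.8 and 83.7 CPM in P1, 385, 390.3 and 582 CPM in CP1, and 191, 185, 162 and 215 CPM in CP2. It rose by 2.17 ± 0.27 in CP1 (edgeR adjusted p = 1.394e-04) and by 0.90 ± 0.25 in CP2 (edgeR adjusted p = 0.0109; 0.0502 without P1 replicate 3), and CP2 was below CP1 by log2 -1.27 ± 0.24 (edgeR adjusted p = 0.0023; 0.0514 without CP1 replicates 2 and 3). Its share of the alpha chain signal per kilobase was 10.7% ± 3.3 in P1, 33.2% ± 2.6 in CP1 and 19.8% ± 2.8 in CP2. Fn1, which encodes its ligand fibronectin, was called in CP2 versus CP1, where it was lower (1433 ± 206 against 4131 ± 708 CPM, log2 -1.53 ± 0.25, edgeR adjusted p = 9.914e-04).

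Itgav, the alpha v chain, had 259, 187 and 153 CPM in P1, 296, 273 and 336 CPM in CP1, and 438, 429, 417 and 355 CPM in CP2. It rose by 1.04 ± 0.17 in CP2 (edgeR adjusted p = 6.000e-04) and by 0.60 ± 0.18 in CP1 (edgeR adjusted p = 0.0215), the latter lost without P1 replicate 2 or 3, without CP1 replicate 3, without CP1 replicates 2 and 3, and in a fit of the 2 lines only (adjusted p = 0.06135 to 0.137). The beta chains that pair with it went separate ways.

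Itgb6, the epithelial beta chain that activates latent TGF-beta, had 23.4, 22.4 and 28.6 CPM in P1, 1.20, 4.28 and 3.04 CPM in CP1, and 0.514, 0.834, 0.137 and 0.744 CPM in CP2, where the 4 libraries held 10, 17, 3 and 16 counts. It fell by 3.12 ± 0.50 in CP1 (edgeR adjusted p = 6.358e-04) and by 5.47 ± 0.52 in CP2 (edgeR adjusted p = 1.673e-05). The difference CP2 minus CP1 was log2 -2.35 ± 0.51 (edgeR adjusted p = 0.0044), and it was -1.11 and not called without CP1 replicates 2 and 3 (adjusted p = 0.206), the tumours with the most urothelial transcripts.

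Itgb8, the other beta chain that activates latent TGF-beta, had 8.13, 6.60 and 3.25 CPM in P1, 63.5, 46.3 and 88.6 CPM in CP1, and 2.11, 1.37, 1.91 and 0.930 CPM in CP2. It rose by 3.46 ± 0.39 in CP1 (edgeR adjusted p = 6.921e-05) and fell by 1.93 ± 0.37 in CP2 (edgeR adjusted p = 0.0015; log2 -1.07 and 0.0815 without P1 replicates 1 and 2). CP2 minus CP1 was -5.38 ± 0.39 (edgeR adjusted p = 9.847e-06), the widest gap between those lines among the chain genes.

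Itgb5, a vitronectin receptor chain, had 249.6, 159 and 185 CPM in P1, 108, 93.3 and 71.5 CPM in CP1, and 128, 147, 108 and 172 CPM in CP2. It fell by 1.12 ± 0.22 in CP1 (edgeR adjusted p = 0.0022), and was at -0.87 without a call when CP1 replicates 2 and 3 were left out (adjusted p = 0.0687). The CP2 value of -0.51 ± 0.20 was just short of a call (adjusted p = 0.0538) and was called under 8 of 16 alternatives, among them DESeq2 (adjusted p = 0.0297) and no filter on low counts (0.0395). CP2 exceeded CP1 by 0.61 ± 0.21 (edgeR adjusted p = 0.0365), a call lost without CP1 replicate 2 or 3, without CP2 replicate 1, 2 or 4, with no filter on low counts and without CP1 replicates 2 and 3 (adjusted p = 0.0515 to 0.417).

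Itgb3, the beta chain of platelets, osteoclasts and angiogenic endothelium, had 76.8, 49.3 and 76.5 CPM in P1, 63.1, 76.2 and 73.7 CPM in CP1, and 32.8, 36.9, 27.4 and 34.9 CPM in CP2. It was lower in CP2 by log2 -1.03 ± 0.16 against P1 and -1.10 ± 0.16 against CP1 (edgeR adjusted p = 4.512e-04 and 5.557e-04). Its platelet partner Itga2b stayed at 8.38 CPM or less, rose by 0.85 ± 0.20 in CP1 (edgeR adjusted p = 0.0062) and fell by 0.90 ± 0.19 in CP2 (edgeR adjusted p = 0.0027). Summed platelet markers (5 genes) were 8.07 to 8.74 CPM in P1, 11.7 to 13.6 in CP1 and 11.5 to 18.3 in CP2. Of 4 platelet markers tested, 2 were higher and 1 lower in CP1 than in P1, with a median log2 value of 0.54. In CP2, 1 was higher than in P1 and 1 lower than in CP1, with median log2 values of -0.25 and -0.28. Itga8, an RGD receptor of smooth muscle and mesenchyme, stayed at 9.17 CPM or less and fell in CP1 (log2 -1.76 ± 0.46, edgeR adjusted p = 0.0103), and CP2 was above CP1 by 1.39 ± 0.43 (edgeR adjusted p = 0.0263).

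Of the alpha4, alpha9 and beta7 chains, best known from leukocyte homing, Itga4 and Itgb7 separated the CP lines. Itga4 had 8.47, 10.6 and 6.46 CPM in P1, 7.45, 8.50 and 4.49 CPM in CP1, and 57.5, 65.9, 60.5 and 65.1 CPM in CP2. It was higher in CP2 by 2.87 ± 0.23 against P1 and 3.19 ± 0.24 against CP1 (edgeR adjusted p = 6.785e-06 and 1.199e-05). Itga4 overlaps the opposite-strand gene Cerkl, which held 101 counts over all tumours against 6568.

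Itgb7, the beta chain of mucosal lymphocyte integrins, had 4.77, 5.61 and 6.93 CPM in P1, 67.8, 29.1 and 46.6 CPM in CP1, and 8.63, 7.80, 7.75 and 7.72 CPM in CP2. It rose by 3.05 ± 0.28 in CP1 (edgeR adjusted p = 2.165e-05), and the difference CP2 minus CP1 was log2 -2.58 ± 0.25 (edgeR adjusted p = 4.619e-05). Its partners did not rise with it in CP1, Itga4 being at -0.32 ± 0.23 (adjusted p = 0.2956) and Itgae, the alpha E chain, at -0.49 ± 0.59 (adjusted p = 0.5324). The 9 lymphocyte and NK markers summed to 11.3 to 23.7 CPM in P1, 1.66 to 4.10 in CP1 and 12.5 to 18.6 in CP2. Ptprc, which marks all leukocytes, lay at 24.6 to 33.0 CPM in P1, 13.0 to 26.0 in CP1 and 34.8 to 48.1 in CP2. The part of leukocytes in the Itgb7 values was not tested. Itga9 lay at 15.1 to 32.7 CPM over all tumours and was called in no comparison, except without P1 replicate 1 in CP1 versus P1 (0.60, adjusted p = 0.0426) and CP2 versus CP1 (-0.47, adjusted p = 0.0476).

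**Figure D4:**
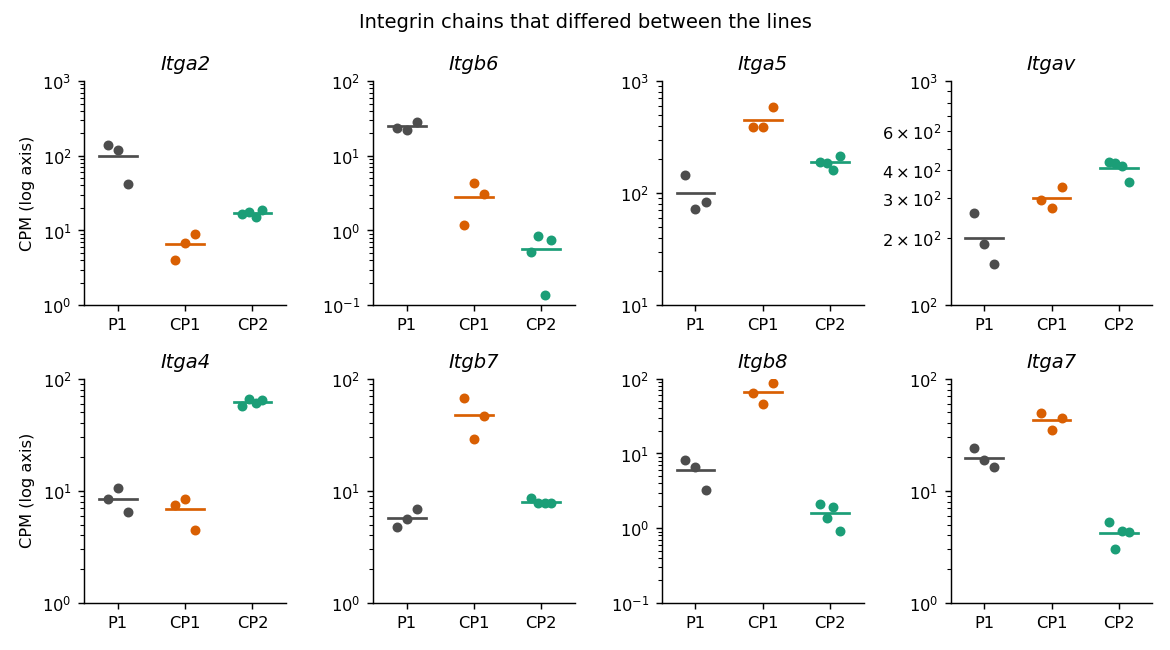
CPM on log axes in each tumour of P1, CP1 and CP2 for 8 integrin chain genes, with 1 point per tumour and a line at the mean. Itga4 stands at 57.5 to 65.9 CPM in CP2 alone, and Itgb7 (29.1 to 67.8 CPM) and Itgb8 (46.3 to 88.6 CPM) are high in CP1 alone.

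Leukocyte integrins showed no common direction. Itgb2, the shared beta chain, had 38.0, 38.2 and 37.5 CPM in P1, 49.1, 54.3 and 73.2 CPM in CP1, and 54.4, 52.7, 48.9 and 54.8 CPM in CP2. It rose by 0.64 ± 0.13 in CP1 and by 0.48 ± 0.13 in CP2 (edgeR adjusted p = 0.0033 and 0.0090), and neither rise was called without P1 replicates 1 and 2 (adjusted p = 0.0535 and 0.104). Itgax, of dendritic cells and some macrophages, had 28.4, 20.5 and 21.3 CPM in P1, 10.5, 4.02 and 3.16 CPM in CP1, and 2.88, 5.84, 8.43 and 10.6 CPM in CP2. It fell by 1.98 ± 0.52 in CP1 and by 1.75 ± 0.47 in CP2 (edgeR adjusted p = 0.0105 and 0.0093), and neither fall was called without P1 replicates 1 and 2 (adjusted p = 0.0736 and 0.0819), nor that in CP1 without CP1 replicates 2 and 3 (log2 -1.15, adjusted p = 0.191). The 5 dendritic markers summed to 11.1 to 12.9 CPM in P1, 5.59 to 11.1 in CP1 and 7.35 to 10.1 in CP2, and the 7 macrophage markers to 634 to 973, 408 to 855 and 646 to 975 CPM.

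Itgal, the lymphocyte alpha L chain, had 8.34, 8.19 and 5.18 CPM in P1, 3.88, 6.91 and 4.25 CPM in CP1, and 10.3, 17.5, 19.9 and 16.6 CPM in CP2. It rose in CP2 by 1.15 ± 0.29 against P1 and 1.68 ± 0.30 against CP1 (edgeR adjusted p = 0.0069 and 0.0015). Ptprc was called higher in CP2 than in CP1 but not than in P1 (log2 1.01 and 0.48). Of 8 lymphocyte and NK markers tested, 1 was higher and 4 lower in CP2 than in P1, and 4 were higher and 0 lower in CP2 than in CP1. Itgam, of neutrophils and macrophages, had 9.33, 9.72 and 13.9 CPM in P1, 13.0, 24.7 and 14.1 CPM in CP1, and 10.5, 6.52, 9.53 and 9.81 CPM in CP2. CP2 was below CP1 by log2 -0.93 ± 0.26 (edgeR adjusted p = 0.0167), and this was lost without CP1 replicate 2 (-0.58, adjusted p = 0.0781) and without CP1 replicates 2 and 3 (-0.52, adjusted p = 0.256). The 6 neutrophil markers summed to 23.2, 91.7 and 46.9 CPM in CP1, with the highest value in the tumour with the most Itgam, and to 14.9 to 26.4 CPM in CP2. The part of leukocytes in these results was not tested. Itgam shares 3450 of its 5024 exon bases with Gm49368 on the same strand, which held 90 counts over all tumours against 3232. How reads in shared bases were counted is not given, so the level of Itgam is uncertain. Itgad had 12 counts or fewer in every library and was not tested, and Itgae stayed at 6.07 CPM or less.

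Partner genes were counted from lists drawn up for adhesion and basement membranes. Of 22 adhesion adaptor genes, 12 rose and 4 fell in CP1 and 12 rose and 6 fell in CP2, where 44.8% and 56.7% of all genes were called. In CP2 versus CP1 (43.3% of all genes called) 3 adaptors were higher and 9 lower. Fermt1, the epithelial kindlin that activates integrins, averaged 191 ± 31.5 CPM (SD) over the P1 tumours and fell to 3.81 ± 2.11 CPM in those of CP1 and 1.08 ± 0.734 CPM in those of CP2 (log2 -5.65 ± 0.52 and -7.48 ± 0.52, edgeR adjusted p = 2.143e-05 and 2.598e-06). Tns4, a tensin of epithelia, fell from 40.1 ± 16.1 CPM to 10.9 ± 4.56 and 4.70 ± 0.698. Lims1 and Tns2 rose in CP1 (1.60 ± 0.15 and 1.57 ± 0.15), and Parvb and Vcl, which link integrins to actin, rose in CP2 (1.94 ± 0.14 and 1.26 ± 0.24).

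Of the 5 hemidesmosome partners, 4 rose and 1 fell in CP1 (44.8% of all genes called), and 2 rose and 2 fell in CP2 (56.7%). In CP2 versus CP1 (43.3%) 1 was higher and 3 were lower. Krt5, a basal keratin, and Col17a1, a hemidesmosomal collagen, rose most (3.65 ± 0.90 and 2.36 ± 0.78, edgeR adjusted p = 0.0080 and 0.0319), with CP1 SDs of 170 and 22.9 CPM around means of 205 and 30.3 CPM, and urothelial markers were high in the same CP1 replicates 2 and 3. Krt14 fell in CP1 and CP2 (log2 -4.02 ± 0.41 and -1.25 ± 0.34). In CP2, Dst and Plec, which encode hemidesmosome plakins also used outside epithelia, rose by 0.62 ± 0.19 and 0.60 ± 0.16 (edgeR adjusted p = 0.0159 and 0.0084), unlike Itgb4.

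Of 14 basement membrane partners, 4 rose and 4 fell in CP1 (44.8% of all genes called), 3 rose and 5 fell in CP2 (56.7%), and 2 were higher and 5 lower in CP2 than in CP1 (43.3%), shares near those of all genes. Col4a5, a collagen IV chain, rose from 18.99 ± 7.67 CPM to 86.8 ± 5.12 in CP1 and 195 ± 44.7 in CP2 (2.19 ± 0.30 and 3.36 ± 0.30, edgeR adjusted p = 2.207e-04 and 1.183e-05). Col7a1, the anchoring fibril collagen of epithelial basement membranes, rose by 3.01 ± 0.32 and 1.99 ± 0.30 (edgeR adjusted p = 5.253e-05 and 3.099e-04), opposite to Lama3 and Lamb3. Agrn, a heparan sulfate proteoglycan that binds laminin, fell from 453 ± 112 CPM to 317 ± 59.7 and 131 ± 11.4 (edgeR adjusted p = 0.0499 and 2.233e-05).

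Of the 4 other laminin receptors, 0 rose and 3 fell in CP1 (44.8% of all genes called), 1 rose and 3 fell in CP2 (56.7%), and 0 were higher and 1 lower in CP2 than in CP1 (43.3%). Bcam, which binds laminins with Lama5, fell from 166 ± 10.3 CPM to 45.1 ± 24.4 and 36.2 ± 1.94, and Sdc1, an epithelial syndecan, from 1768 ± 221 to 541 ± 60.2 and 248 ± 22.2. Of 12 integrin ligands tested, 5 rose and 3 fell in CP1 (44.8% of all genes called), and 4 rose and 5 fell in CP2 (56.7%). In CP2 versus CP1 (43.3%) 1 ligand was higher, 2 were lower and 9 were not called. Icam1, a ligand of beta2 integrins, fell from 125 ± 17.9 CPM to 15.7 ± 1.95 and 14.5 ± 3.16, and Vcam1, a ligand of alpha4 integrins, from 356 ± 26.5 to 42.5 ± 27.2 in CP1. Vcam1 was higher in CP2 than in CP1 (1.29 ± 0.35, edgeR adjusted p = 0.0136), but its mean of 104 ± 21.5 CPM in CP2 lay below that of P1, where Itga4 was lower than in CP2.

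The 5 genes that share the name only were counted apart. Itgb1bp1, which binds the Itgb1 tail, had 21.6, 22.2 and 25.8 CPM in P1, 45.8, 41.8 and 55.4 CPM in CP1, and 29.6, 31.05, 29.8 and 31.4 CPM in CP2. It rose by 1.04 ± 0.12 in CP1 (edgeR adjusted p = 8.320e-05) and by 0.39 ± 0.11 in CP2 (edgeR adjusted p = 0.0131), the latter lost without P1 replicate 1 or 2, without both, and with no filter on low counts (adjusted p = 0.0547 to 0.307). Its exons overlap those of Asap2 and Cpsf3 on the opposite strand, which held 12221 and 16543 counts against 8617, so its values are uncertain. Itgbl1, an integrin beta-like secreted protein gene, had 7.02, 9.41 and 3.03 CPM in P1, 2.05, 1.56 and 0.971 CPM in CP1, and 8.37, 10.4, 9.07 and 13.3 CPM in CP2. It fell in CP1 (log2 -2.08 ± 0.42, edgeR adjusted p = 0.0025). That call was lost without P1 replicates 1 and 2 (-1.01) and without CP1 replicates 2 and 3 (-1.66). CP2 exceeded CP1 for Itgbl1 by 2.75 ± 0.41 (edgeR adjusted p = 5.899e-04), and CP2 versus P1 was not called (0.66 ± 0.37, edgeR adjusted p = 0.1507). Itgb3bp, a centromere protein gene, rose in CP2 (0.97 ± 0.24, edgeR adjusted p = 0.0069), and it shares exon bases with Pgm1 on the opposite strand, which held 21770 counts against 1534. Itgb2l stayed at 0.779 CPM or less and was lower in CP1 and CP2 than in P1 (log2 -1.72 ± 0.45 and -1.69 ± 0.43, edgeR adjusted p = 0.0109 and 0.0073), and Itgb1bp2 had 16 counts or fewer in every library and was not tested.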

How the data were processed

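RNA-seq of 10 orthograft tumours was analysed from raw read counts per Ensembl gene, 1 deposited count file per tumour. The submitters' processing notes name the build GRCm38.p3 and, in no stated order, HTSeq 0.6.0 (read counting), the aligners Bowtie2 2.2.6.0 and TopHat2 2.1.0, FastQC 0.11.4 (read quality), and DESeq2 1.14.1 under R 3.2.3. The annotation release and strand setting are not given in the sources used here. Of 47069 IDs, 46574 matched GENCODE M21, which gave symbols, exon lengths and overlaps. Library totals ranged from 18800912 to 37180721 counts.

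All 10 tumours entered 1 edgeR 4.0.16 quasi-likelihood fit in R 4.3.3, with TMM scaling and filterByExpr (minimum count 10, minimum total 15), leaving 17644 genes. Calls needed an adjusted p (Benjamini-Hochberg, over all of these) below 0.05. CPM used TMM-scaled library sizes, and counts were divided by exon length only to compare genes. The fit was tested on simulated data in which 200 genes were changed and all others were not. Of 100 genes given a log2 change of 1 in either direction, it called 48 in CP1 versus P1 and 57 in CP2 versus P1. With a change of 2 it called 86 and 91 of 100. In the tumours 44.8% and 56.7% of genes were called, so the adjustment for multiple tests was stricter in the simulation. The recovered numbers therefore do not measure how many changes were missed here, and CP2 versus CP1 was not simulated. A missing call does not show that a gene was unchanged. Alternatives were DESeq2 1.42.0 and its size factors, no filter, fits of 2 lines, fits leaving out tumours, and shares without length division.

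Values in each tumour, or their range within a line or over all tumours, are given for genes that averaged 10 CPM or more in any line. The 2 partner genes per list, comparison and direction with the largest called changes were eligible to be named. The members and lists were chosen with earlier results of these data known. Part of the genotypes and 1 gene of the naming rule are not reported here.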

Additional observations from a re-analysis of the deposited data

Results flagged for a closer look

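Single tumours that stood apart from the rest of their line were looked for in CP2 only, and the lines of 3 tumours were not screened. Over 32 genes, 2 tumours lay further from the others than Dixon's 95% critical value for 4 samples allows, and chance alone marks about 1 in 20 groups. Itga11 stood at 4.33 CPM in CP2 replicate 4, against 1.28 to 1.41 CPM in the other CP2 tumours. Itgb7 stood at 8.63 CPM in CP2 replicate 1, the tumour whose title names CP1, against 7.72 to 7.80 CPM in the other CP2 tumours and 29.1 to 67.8 CPM in CP1.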

How the results depend on the processing

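Of 96 gene results (32 genes in 3 comparisons), 65 were called, 41 of them under all 16 alternatives, 24 were lost under at least 1, and 0 called results reversed. Of the 31 results not called, 16 were called under at least 1 alternative. Without CP1 replicates 2 and 3, CP2 versus CP1 gave 2094 genes higher and 2067 lower in the whole series, against 3764 and 3871, and 6 chain genes higher against 10. Leaving out 1 tumour gave 4 to 12 chain genes higher there. Without division by length, share differences in percentage points were 0.753 for Itga2 in CP2 versus CP1, -0.244, 3.42 and 3.66 for Itga4 in CP1 versus P1, CP2 versus P1 and CP2 versus CP1, and 17.0 and 4.84 for Itga5 in CP1 and CP2 versus P1, against 0.906, -0.136, 1.99, 2.13, 22.5 and 9.14. The causes were not tested, beyond fewer samples and the dropped lengths. Fits that leave 1 tumour in a line take its spread from the other lines.

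The sign of some uncalled log2 fold changes turned. Leaving out 1 tumour at a time, Itgb3 ranged from -0.13 to 0.16 in CP1 versus P1, and in CP2 versus P1 Itga1 ranged from -0.019 to 0.78, Itga9 from -0.46 to 0.12 and Lama1 from -0.76 to 0.19. In CP2 versus CP1, Itgax ranged from -0.069 to 0.95, Itgb2 from -0.28 to 0.024, Lama3 from -0.22 to 0.40, Lamb2 from -0.16 to 0.026 and Lamb3 from -0.31 to 0.46. Without P1 replicates 1 and 2, Itga4 was 0.052 and Itgb3 -0.14 in CP1 versus P1, and Itga9 was 0.11 and Lama1 0.40 in CP2 versus P1. Without CP1 replicates 2 and 3, Itga3 was -0.11, Itgb3 -0.10 and Lama2 -0.65 in CP1 versus P1, and Itgax was -0.60, Itgb2 0.10 and Lamb2 0.0097 in CP2 versus CP1. No paired analysis was possible because the labels give no replicate numbers that tie tumours of different lines together.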
